A study of Mus musculus with 21 samples.

Results

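The CHD (chromodomain helicase DNA-binding) proteins are chromatin remodelers, enzymes that spend ATP to slide, space or evict nucleosomes. The genes described here are the 9 members of the family, *Chd1* to *Chd9*, chosen by gene symbol from the 24456 genes of the count table of each library. All 9 were found, and all 9 passed the filter on low counts in each of the 10 comparisons.

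The data are RNA sequencing counts from mouse testis cells that had been separated into fractions by stage, with ribosomal RNA depleted and strand-specific libraries made from total RNA. The labels give 4 cell types and 2 genotypes, *H2al2* WT (wild type) and *H2al2* KO, in which the gene of the testis histone variant H2A.L.2 is targeted. Pachytene spermatocytes are cells in meiotic prophase, round spermatids are the haploid cells that follow meiosis, and condensing spermatids are those whose nuclei compact. Each of these 3 stages has 3 wild-type and 3 KO libraries, and spermatozoa have 2 wild-type libraries and 1 KO library. The labels give no age, strain, description of the KO allele or note of pooled animals. The paper calls its wild-type round spermatid libraries biological replicates, and its checklist says that the study used biological replicates. For no group does a source say that the replicates are separate animals, so p-values measure the spread between libraries.

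Counts on genes in replicates 1, 2 and 3 were 8062396, 8201682 and 6206239 in wild-type pachytene spermatocytes. They were 5799060, 5849119 and 6695384 in KO pachytene spermatocytes. Round spermatids gave 7852780, 7679322 and 7326572 in wild type and 7387043, 7249594 and 7230653 in KO. Condensing spermatids gave 6482088, 6676636 and 5876464 in wild type and 6872271, 7400817 and 6996569 in KO. The spermatozoa libraries were the shallowest, with 3450580 and 2772995 in wild type and 3297783 in KO. A count of 0 allows 3 counts, which is 0.366 to 1.08 CPM before TMM scaling, and the lowest count of any member in any library was 36, for *Chd7* in KO pachytene replicate 3.

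Levels are given as CPM, each library's counts on genes brought to a common total with TMM factors over the 21 libraries, and levels of different genes are compared only per kilobase of annotated exon. Called means an adjusted p under 0.05, where p comes from edgeR's quasi-likelihood test and Benjamini-Hochberg adjustment runs over all genes tested. In bulk fractions, a smaller number of cells of a type and less RNA per cell cannot be told apart. CPM measure a gene's share of the RNA of a library, so a rise or fall between stages need not be one in RNA per cell.

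The genotype labels were checked on *H2afb1*, the gene of H2A.L.2. In wild type its level in replicates 1, 2 and 3 was 40.8, 36.7 and 14.5 CPM in pachytene cells, 201, 206 and 211 in round and 190, 160 and 250 in condensing spermatids. In KO it was 4.81, 4.92 and 3.16 CPM in pachytene cells, 25.3, 25.4 and 20.7 in round and 26.5, 35.7 and 29.9 in condensing spermatids. In spermatozoa it was 57.7 and 45.1 CPM in wild type and 14.6 in KO. Every KO library lay below every wild-type library of its stage, and reads of the gene were present in all KO libraries. The KO minus wild-type log2 difference was -3.10 ± 0.10 in round spermatids (SE, n = 3 and 3, adjusted p = 3.4e-08, edgeR) and -2.71 ± 0.17 in condensing spermatids (adjusted p = 9.54e-07, edgeR). In pachytene spermatocytes it was -2.75 ± 0.37 and was not called (adjusted p = 0.484, edgeR).

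The stage labels were checked on marker lists of 7 genes each, which were set with earlier results of these data known. Spermatocyte markers summed to 1800 to 3160 CPM in the 6 pachytene libraries, 406 to 870 in round spermatids, 1000 to 1230 in condensing spermatids and 136 to 233 in spermatozoa, and *Piwil1* or *Smc1b* was the most abundant. Round spermatid markers summed to 1360 to 1550 CPM in round spermatids, 746 to 912 in condensing spermatids and 373 to 586 in pachytene spermatocytes, led by *Tssk1* or *Acr*. Elongating spermatid markers, led by *Prm2*, summed to 19500 to 25500 CPM in round spermatids and 21500 to 32600 in condensing spermatids. The last ranges overlap, so round and condensing fractions were separated by the round spermatid markers and not by the elongating ones. Spermatogonium markers, led by *Uchl1*, *Kit* or *Dmrt1*, summed to 63.4 to 80.5 CPM in condensing, 40.6 to 56.9 in round and 30.4 to 56.4 in pachytene libraries.

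A few libraries stand apart from the rest. The single KO spermatozoa library had 3590 CPM of macrophage markers against 774 and 727 in wild type, and it enters no test. Wild-type round spermatid replicates 2 and 3 agreed more closely than any other replicates: for genes of 100 to 1000 counts, the mean chi-square of their counts was 1.06, against 1.9 to 12.2 in the other comparisons of replicates. That is near the value that counting noise alone gives. For genes over 10000 counts it was 8.76, against 65.9 to 593 in the others. The tests treat the 2 as separate libraries. With them summed, *Chd6* was no longer called from pachytene to round spermatids in wild type (0.43, adjusted p = 0.0673, edgeR). Whether they come from separate animals is not stated.

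CHD proteins share a pair of chromodomains, which can bind histone tails, and an ATPase motor of the SNF2 type, and they fall into groups with different partners. *Chd1* and *Chd2* encode enzymes of active genes, *Chd3*, *Chd4* and *Chd5* encode alternative motors of the NuRD (nucleosome remodeling and deacetylase) complex, and *Chd6* to *Chd9* encode large proteins, several of them tied to developmental disorders. In the testis the family is best known for CHD5, which is made in spermatids and is needed there for the exchange of histones for protamines.

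Per kilobase of exon, the first rank of the family passed between *Chd4* and *Chd5*, and *Chd9* also exchanged places with *Chd7* and *Chd6*. In wild-type pachytene spermatocytes *Chd4* was the most abundant, at 76.0 ± 4.11 CPM per kb (SD, n = 3), followed by *Chd5* at 20.9 ± 6.81 and *Chd3* at 13.7 ± 0.532, and the ranges of *Chd5* and *Chd3* overlapped. *Chd1* (8.78) and *Chd8* (7.73) followed with overlapping ranges, then *Chd2* (3.42), *Chd9* (1.90), and *Chd6* (0.718) with *Chd7* (0.603), whose ranges overlapped. In wild-type round spermatids *Chd5* led at 90.2 ± 6.25 CPM per kb, above *Chd4* at 48.7 ± 2.49 and *Chd3* at 8.74 ± 0.46, with no overlap between these 3. Below them came *Chd1* (3.51), *Chd8* (2.76), *Chd2* (2.13) and *Chd7* (1.77), of which *Chd8* overlapped *Chd2* and *Chd2* overlapped *Chd7*, then *Chd6* (0.937) and *Chd9* (0.614). *Chd9* lay above *Chd7* in pachytene spermatocytes (1.14 to 2.61 against 0.594 to 0.617) and below it in round spermatids (0.569 to 0.703 against 1.41 to 2.07). It likewise lay above *Chd6* in pachytene spermatocytes (0.595 to 0.86 for *Chd6*) and below it in round spermatids (0.903 to 0.957). Wild-type condensing spermatids kept *Chd5* first, at 65.2 ± 8.61 CPM per kb, and *Chd4* second, at 41.0 ± 2.36, without overlap.

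In wild-type spermatozoa *Chd4* was first again, at 39.0 ± 3.36 CPM per kb (SD, n = 2), then *Chd3* at 12.6 ± 0.484, *Chd5* at 11.4 ± 0.796 and *Chd2* at 10.7 ± 0.686, and the last 2 overlapped. The KO groups had the same leading gene as wild type at each stage: *Chd4* at 67.4 CPM per kb in pachytene spermatocytes, *Chd5* at 90.3 in round and 69.7 in condensing spermatids, and *Chd4* at 51.5 in the single spermatozoa library. With the length of the longest transcript in place of the union of exons, the leading gene of every group was the same, and lower ranks moved, such as *Chd8* passing *Chd1* in wild-type round spermatids. The exon lengths, from 8.02 kb for *Chd4* to 23.15 kb for *Chd9*, come from GENCODE M21 and not from the annotation the authors counted on.

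**Figure D1:**
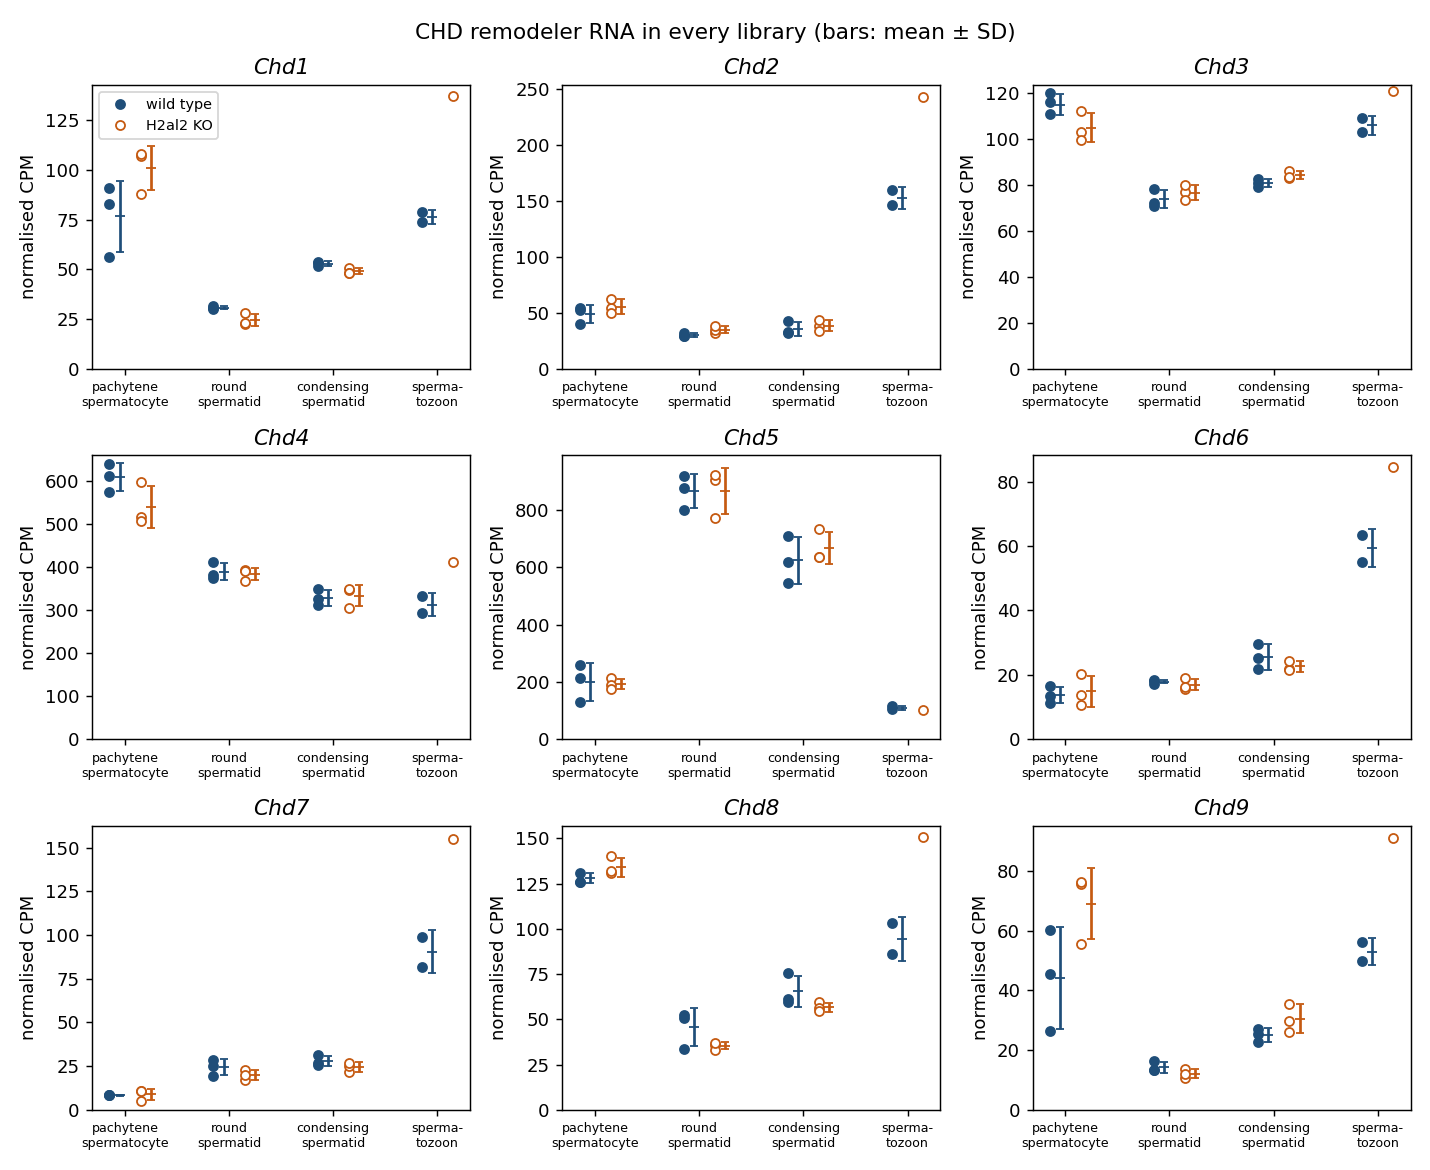
Normalised CPM of each of the 9 CHD genes (vertical axes, each from 0) in the 21 libraries, by cell type on the horizontal axis. Filled points are wild-type libraries, open points *H2al2* KO libraries, and bars give the mean ± SD of groups of 2 or 3; *Chd5* lies at 772 to 922 CPM in the 6 round spermatid libraries and at 102 to 115 CPM in the 3 spermatozoa libraries.

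From pachytene spermatocytes to round spermatids in wild type, 3 of the 9 members rose (*Chd5*, *Chd7* and *Chd6*), where 34.4% of the 14011 genes tested rose, and 6 fell (*Chd1*, *Chd2*, *Chd3*, *Chd4*, *Chd8* and *Chd9*), where 35.9% fell. The median log2 fold change of the 9 members was -0.61, beside -0.016 over all genes. From round to condensing spermatids 4 members rose (*Chd1*, *Chd6*, *Chd8* and *Chd9*), with 28.3% of all genes rising, and 0 fell, with 21.8% falling. From condensing spermatids to spermatozoa 7 members rose, with 36.6% of 15116 genes rising, and 1 fell, *Chd5*, with 35.8% falling. The median of the members was 0.26 at the first of these later steps and 0.58 at the last, beside 0.043 and 0 over all genes. Successive steps share libraries, so a gene high in round spermatids has to differ at both steps that use them.

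In the KO, 2 members rose from pachytene spermatocytes to round spermatids (*Chd5* and *Chd7*; 36.5% of 13877 genes rose) and 6 fell (*Chd1*, *Chd2*, *Chd3*, *Chd4*, *Chd8* and *Chd9*; 38.4% fell). From round to condensing spermatids 3 rose (*Chd1*, *Chd8* and *Chd9*; 29.7% of genes rose) and 1 fell (*Chd5*; 24.5% fell). With scaling by library size alone, the median of all genes was -0.201 for the first step in wild type, -0.153 in KO and 0.107 for the second step in wild type. Under that scaling every called member kept its direction, and *Chd6* was no longer called at the first wild-type step.

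**Figure D2:**
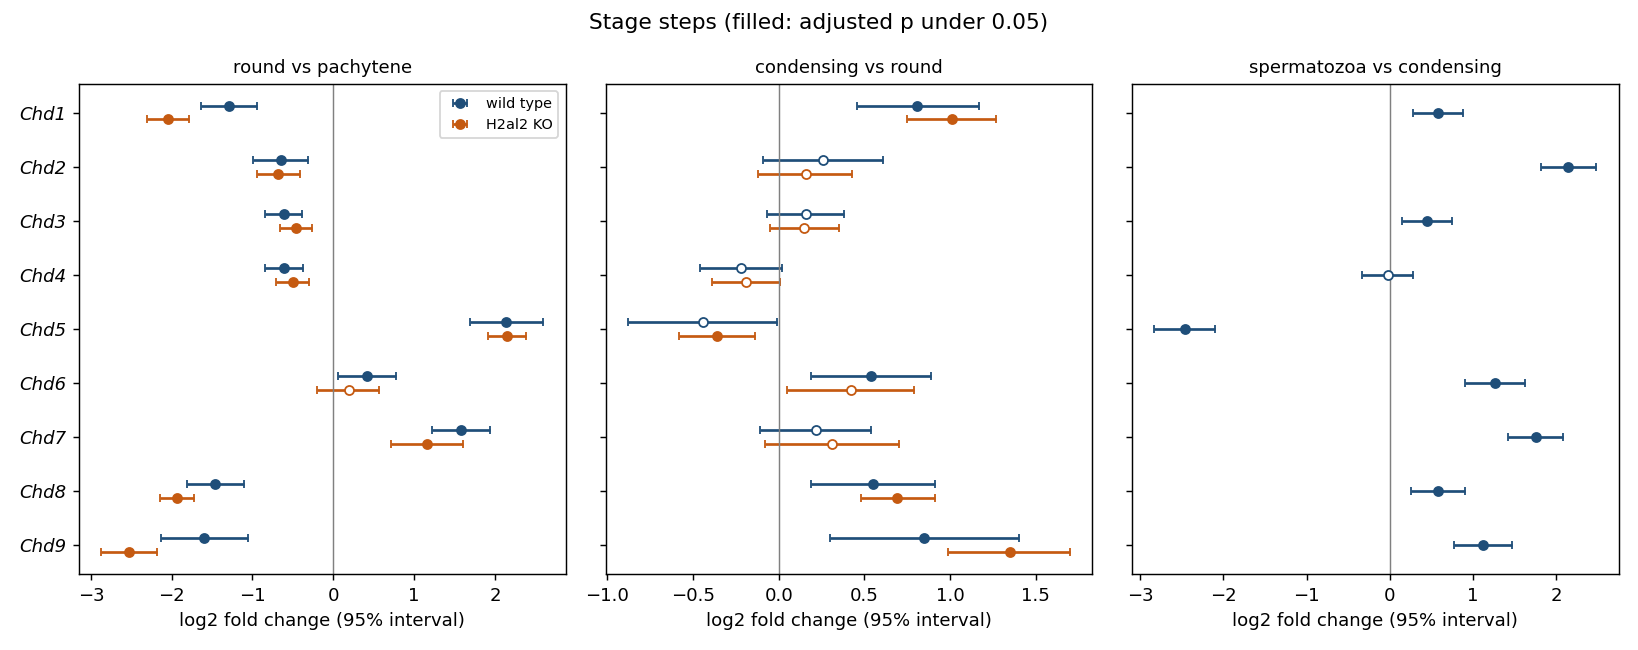
Log2 fold changes of the 9 CHD genes at 3 stage steps, with 95% intervals computed from edgeR's F statistic, in wild type and, for the first 2 steps, in *H2al2* KO. Filled points have an adjusted p under 0.05 and each panel has its own axis. *Chd5* lies at 2.14 and 2.15 for round spermatids over pachytene spermatocytes and at -2.46 for spermatozoa over condensing spermatids.

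*Chd1*, whose protein binds methylated histone H3 at active promoters, lies on chromosome 17 (15704967 to 15772610, plus strand, GRCm38). Its level in wild-type replicates 1, 2 and 3 was 82.8, 56.2 and 90.8 CPM in pachytene cells, 31.4, 29.9 and 30.4 in round and 53.7, 51.6 and 53.4 in condensing spermatids, and 79.0 and 73.9 in spermatozoa. Round spermatids were the lowest of the 4 groups and condensing spermatids the next, and spermatozoa overlapped pachytene spermatocytes. It fell by 1.29 ± 0.16 on the log2 scale from pachytene to round spermatids (SE, n = 3 and 3, adjusted p = 1.09e-05, edgeR). It then rose by 0.81 ± 0.16 to condensing spermatids (adjusted p = 0.00139, edgeR) and by 0.58 ± 0.15 to spermatozoa (n = 3 and 2, adjusted p = 0.00133, edgeR).

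*Chd2*, the closest relative of *Chd1*, lies on chromosome 7 (73426638 to 73541830, minus strand) and shares 2628 exon bases with 1810026B05Rik on the same strand, so reads there may be lost to both genes. Its wild-type level was 52.8, 39.9 and 54.0 CPM in pachytene cells, 29.4, 29.5 and 32.3 in round and 31.8, 32.6 and 43.1 in condensing spermatids, and 146 and 160 in spermatozoa. Spermatozoa stood far above the other groups, round spermatids stood below pachytene spermatocytes without overlap, and condensing spermatids overlapped both. It fell by 0.65 ± 0.16 from pachytene to round spermatids (SE, n = 3 and 3, adjusted p = 0.00227, edgeR), and from condensing spermatids to spermatozoa it rose by 2.14 ± 0.16 (4.42-fold, n = 3 and 2, adjusted p = 1.44e-10, edgeR). In between it was not called (0.26, 95% interval -0.09 to 0.61).

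Among the 3 alternative NuRD motors, *Chd5* moved against *Chd3* and *Chd4* at the entry into spermiogenesis. *Chd5* lies on chromosome 4 (152338651 to 152390194, plus strand; 42 exons in its longest coding transcript). In wild-type replicates 1, 2 and 3 its level was 214, 258 and 129 CPM in pachytene cells, 800, 876 and 918 in round and 617, 546 and 710 in condensing spermatids, and in spermatozoa 115 and 104. Round spermatids were highest, condensing spermatids next, then pachytene spermatocytes, and spermatozoa lowest, with no overlap between groups. In KO replicates 1, 2 and 3 it was 213, 189 and 177 CPM in pachytene cells, 903, 922 and 772 in round and 636, 635 and 733 in condensing spermatids, and 102 in the single spermatozoa library. The KO groups had the same order, again without overlap, and each overlapped its wild-type counterpart at the 3 replicated stages.

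*Chd5* rose 4.42-fold from pachytene to round spermatids in wild type (log2 2.14 ± 0.21, SE, n = 3 and 3, adjusted p = 1.13e-06, edgeR) and 4.44-fold in KO (2.15 ± 0.11, adjusted p = 1.38e-12, edgeR). From round to condensing spermatids it was not called in wild type (-0.44 ± 0.20, 95% interval -0.88 to -0.01, adjusted p = 0.0818, edgeR), and in KO it fell by 0.36 ± 0.11 (adjusted p = 0.00696, edgeR). These steps were not shown to differ between genotypes, since the interaction was 0.07 (interval -0.40 to 0.55). The call at this step depends on the fit: wild type was called by DESeq2 (-0.49, adjusted p = 0.0438) and with all 18 libraries in 1 edgeR fit (-0.45, adjusted p = 0.0244), where KO was not (-0.37, adjusted p = 0.0602). From condensing spermatids to spermatozoa *Chd5* fell by 2.46 ± 0.18 (n = 3 and 2, adjusted p = 7.73e-11, edgeR), which makes spermatozoa 5.52-fold lower. Round spermatid markers fell at that step too, from 820, 814 and 746 CPM to 138 and 116, with 7 of 7 called lower (median -2.87). Of the elongating spermatid markers 5 of 7 were called lower (median -1.49). The part of these changes in the fall of *Chd5* was not tested.

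*Chd4*, the main NuRD motor of most tissues, lies on chromosome 6 (125095981 to 125130591, plus strand). Its wild-type level was 613, 641 and 575 CPM in pachytene cells, 413, 375 and 383 in round and 325, 349 and 312 in condensing spermatids, and 294 and 332 in spermatozoa. Pachytene spermatocytes were the highest group, and condensing spermatids and spermatozoa overlapped. It fell by 0.61 ± 0.11 from pachytene to round spermatids (SE, n = 3 and 3, adjusted p = 0.00026, edgeR). It was not called at the later steps (-0.22, 95% interval -0.46 to 0.02, then -0.02, interval -0.33 to 0.28), although DESeq2 called the first of them (-0.27, adjusted p = 0.0107).

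*Chd3*, the third motor, lies on chromosome 11 (69343273 to 69369406, minus strand). In wild type it measured 111, 120 and 116 CPM in pachytene cells, 70.8, 78.2 and 72.3 in round spermatids, 79.2, 80.7 and 82.6 in condensing spermatids and 103 and 109 in spermatozoa. Its groups did not overlap, and the whole range was narrow beside that of *Chd5*. It fell by 0.61 ± 0.10 from pachytene to round spermatids (SE, n = 3 and 3, adjusted p = 0.000155, edgeR) and was not called from round to condensing spermatids (0.16, 95% interval -0.07 to 0.38). It rose by 0.44 ± 0.14 to spermatozoa (n = 3 and 2, adjusted p = 0.00836, edgeR), a call lost without wild-type spermatozoa replicate 2 (0.41, adjusted p = 0.0729).

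The balance of the 3 motors can be read per kilobase within each library. *Chd5* made up 19.9%, 22.3% and 13.7% of the summed *Chd3*, *Chd4* and *Chd5* level in wild-type pachytene replicates 1, 2 and 3. The share was 58.2%, 62.0% and 63.0% in round spermatids, 56.3%, 51.7% and 60.4% in condensing spermatids and 19.7% and 16.7% in spermatozoa. Spermatids of both kinds thus held shares above those of every pachytene and spermatozoa library, and round and condensing spermatids overlapped. In KO the share was 22.5%, 20.8% and 17.4% in pachytene cells, 61.8%, 63.5% and 58.4% in round spermatids, 55.3%, 58.1% and 58.9% in condensing spermatids and 13.9% in spermatozoa. It overlapped wild type at each of the 3 replicated stages. The summed level of the 3 genes was 99.0 to 121 CPM per kb in wild-type pachytene spermatocytes, 143 to 152 in round spermatids, 110 to 123 in condensing spermatids and 60.9 to 65.2 in spermatozoa. Measured on the longest transcripts, the mean share of *Chd5* in wild type was 16.3%, 57.1%, 52.1% and 15.9% over the 4 stages, in place of 18.6%, 61.1%, 56.1% and 18.2%.

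RNA of spermatid marker genes was also found in pachytene libraries, and its source was not tested. In wild type the *Chd5* level had the order of the round spermatid sum and not that of the elongating sum. The round spermatid markers, all 7 detected and led by *Acr*, summed to 508, 586 and 373 CPM in wild-type pachytene replicates 1, 2 and 3, the order of *Chd5* at 214, 258 and 129, and to 425, 446 and 437 in KO. The elongating spermatid markers, all 7 detected and led by *Prm2*, summed to 4560, 4290 and 1740 CPM in wild-type pachytene replicates 1, 2 and 3 and to 2250, 2520 and 2300 in KO. Both sums were lowest in wild-type replicate 3, and the elongating sum was highest in replicate 1. In KO the sums lay close together, and the library highest in *Chd5*, replicate 1 at 213 CPM, had the lowest of both. It was level in *Chd5* with wild-type replicate 1, whose elongating sum was 4560 against 2250. The part of spermatid RNA in the *Chd5* level of pachytene fractions was not tested. Without wild-type pachytene replicate 3, the wild-type rise of *Chd5* to round spermatids was 1.91, and over all 6 choices of a left-out library it was 1.91 to 2.36.

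The other subunits of NuRD moved in both directions, in shares near those of all genes at the first step. The list holds 12 partner genes, and from pachytene to round spermatids in wild type 5 rose, 5 fell and 2 were not called, beside 34.4% of all genes rising and 35.9% falling, with a median log2 fold change of -0.15. *Mbd2* and *Mbd3*, which encode alternative methyl-CpG-binding domain subunits, went opposite ways. *Mbd2* was at 21.8, 18.6 and 14.7 CPM in wild-type pachytene replicates 1, 2 and 3 and at 55.9, 56.6 and 62.5 in round spermatids, while *Mbd3* was at 134, 146 and 124 and at 62.7, 57.4 and 60.3. Neither gene's groups overlapped. *Mbd2* rose by 1.69 ± 0.17 (SE, n = 3 and 3, adjusted p = 1.36e-06, edgeR) and *Mbd3* fell by 1.13 ± 0.12 (adjusted p = 2.62e-06, edgeR). *Rbbp4* and *Rbbp7*, which encode histone-binding WD40 subunits, also parted: *Rbbp4* fell by 1.64 and *Rbbp7* rose by 0.70. *Gatad2a* (0.95), *Gatad2b* (1.29) and *Cdk2ap1* (0.58, adjusted p = 0.0499, edgeR) rose, and the MTA scaffold genes *Mta1* (-0.88), *Mta2* (-0.84) and *Mta3* (-1.51) fell. The deacetylase genes were not called, with *Hdac1* at -0.09 (95% interval -0.40 to 0.22) and *Hdac2* at -0.20 (-0.44 to 0.04).

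From round to condensing spermatids in wild type, 4 of the 12 partners rose and 3 fell (28.3% and 21.8% of all genes), with a median of -0.11. *Rbbp7* rose by 1.56 ± 0.19, *Mta3* by 0.89 ± 0.14, *Mbd2* by 0.47 ± 0.16 and *Rbbp4* by 0.41 ± 0.12, while *Gatad2b* fell by 0.88 ± 0.13, *Hdac1* by 0.72 ± 0.15 and *Gatad2a* by 0.46 ± 0.15 (log2, SE). Towards spermatozoa 6 rose and 2 fell (36.6% and 35.8% of all genes), with a median of 0.33. *Rbbp7* stood at 48.0, 32.4 and 46.7 CPM in wild-type condensing replicates and at 105 and 99.5 in spermatozoa, a rise of 1.32 ± 0.17 (n = 3 and 2, adjusted p = 4.68e-07, edgeR). *Hdac1* fell by 1.06 ± 0.17. In the KO, 5 partners rose and 6 fell from pachytene to round spermatids (36.5% and 38.4% of all genes), and 4 rose and 3 fell from round to condensing spermatids (29.7% and 24.5%).

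*Chd7*, whose human counterpart is mutated in CHARGE syndrome, lies on chromosome 4 (8690406 to 8867659, plus strand). In wild-type replicates 1, 2 and 3 it was at 8.18, 8.25 and 8.50 CPM in pachytene cells, 19.5, 25.2 and 28.6 in round and 25.8, 26.5 and 31.3 in condensing spermatids, and at 99.1 and 81.9 in spermatozoa. Pachytene spermatocytes were lowest, round and condensing spermatids overlapped, and spermatozoa were highest. It rose by 1.58 ± 0.17 from pachytene to round spermatids (3-fold, SE, n = 3 and 3, adjusted p = 2.05e-06, edgeR) and by 1.75 ± 0.16 from condensing spermatids to spermatozoa (3.36-fold, n = 3 and 2, adjusted p = 3.04e-09, edgeR). In between it was not called (0.22, 95% interval -0.11 to 0.54).

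*Chd8*, which encodes a regulator of Wnt target genes linked to autism in people, lies on chromosome 14 (52198151 to 52257780, minus strand). Its wild-type level was 126, 126 and 131 CPM in pachytene cells, 33.4, 50.9 and 52.3 in round and 59.5, 61.5 and 75.4 in condensing spermatids, and 86.0 and 103 in spermatozoa. Round spermatids were lowest, with replicate 1 below replicates 2 and 3, and no groups overlapped. It fell by 1.46 ± 0.16 from pachytene to round spermatids (SE, n = 3 and 3, adjusted p = 4.06e-06, edgeR), rose by 0.55 ± 0.17 to condensing spermatids (adjusted p = 0.0151, edgeR) and rose by 0.58 ± 0.16 to spermatozoa (n = 3 and 2, adjusted p = 0.00265, edgeR). The second call was lost without wild-type round replicate 1 (0.36, adjusted p = 0.0604) or condensing replicate 3 (0.42, adjusted p = 0.0664), and the last without spermatozoa replicate 2 (0.45, adjusted p = 0.0694).

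*Chd9* lies on chromosome 8 (90828352 to 91054516, plus strand) and encodes the family member with the longest exon sequence here. It was at 45.4, 26.4 and 60.4 CPM in wild-type pachytene spermatocytes, 13.2, 16.3 and 13.2 in round spermatids, 22.8, 27.2 and 25.5 in condensing spermatids and 49.8 and 56.2 in spermatozoa. Round spermatids were lowest, and the pachytene libraries spread widely enough to overlap both later groups. It fell by 1.60 ± 0.25 from pachytene to round spermatids (SE, n = 3 and 3, adjusted p = 6.95e-05, edgeR), rose by 0.85 ± 0.25 to condensing spermatids (adjusted p = 0.0146, edgeR) and by 1.12 ± 0.17 to spermatozoa (n = 3 and 2, adjusted p = 3.93e-06, edgeR). The rise to condensing spermatids was not called without condensing replicate 2 (0.75, adjusted p = 0.062) or round replicate 3 (0.79, adjusted p = 0.0521).

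*Chd6* lies on chromosome 2 (160946978 to 161109075, minus strand) and was among the scarcest members per kilobase. In wild type it measured 13.4, 11.4 and 16.4 CPM in pachytene cells, 18.1, 17.2 and 18.3 in round spermatids, 21.8, 25.3 and 29.7 in condensing spermatids and 55.1 and 63.5 in spermatozoa. The 4 groups were in this order without overlap. Its rise from pachytene to round spermatids was small (0.42 ± 0.17, SE, n = 3 and 3, adjusted p = 0.0382, edgeR). That call was lost without pachytene replicate 1 (0.39, adjusted p = 0.101) or 2 (0.29, adjusted p = 0.144) and without round replicate 1 (0.41, adjusted p = 0.0756), 2 (0.45, adjusted p = 0.064) or 3 (0.41, adjusted p = 0.0895). It rose by 0.54 ± 0.16 to condensing spermatids (adjusted p = 0.0146, edgeR), not called without condensing replicate 3 (0.41, adjusted p = 0.0667) or round replicate 2 (0.51, adjusted p = 0.0558), and by 1.26 ± 0.17 to spermatozoa (n = 3 and 2, adjusted p = 1.31e-06, edgeR).

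The KO libraries gave the same stage steps with their own values. From pachytene to round spermatids the log2 change in KO was -2.05 ± 0.12 for *Chd1*, -0.68 ± 0.13 for *Chd2*, -0.46 ± 0.09 for *Chd3* and -0.50 ± 0.10 for *Chd4* (SE, n = 3 and 3). It was 1.16 ± 0.21 for *Chd7*, -1.93 ± 0.10 for *Chd8* and -2.53 ± 0.16 for *Chd9*. *Chd6* was not called (0.19, 95% interval -0.20 to 0.57), except without KO pachytene replicate 1 (0.46, adjusted p = 0.0224, edgeR), and without KO pachytene replicate 3 its value was -0.02. From round to condensing spermatids *Chd1* rose by 1.01 ± 0.13, *Chd8* by 0.69 ± 0.10 and *Chd9* by 1.35 ± 0.17. *Chd6* was not called at this step (0.42, interval 0.05 to 0.79, adjusted p = 0.0508, edgeR), and it was called without KO round replicate 1 (0.49, adjusted p = 0.037, edgeR).

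The fractions also differed in the RNA of other cells, and those values stand beside the stage steps. Sertoli cell markers, 8 to 10 of 10 detected and led by *Clu*, summed to 363 to 552 CPM in the 6 condensing libraries against 30.4 to 64.2 in round and 21.4 to 44.9 in pachytene libraries, and *Fshr* or *Rhox5* was at 0 in some round and pachytene libraries. Leydig cell markers, 7 of 7 detected, summed to 91.0 to 236 CPM in condensing, 6.62 to 15.2 in round and 26.1 to 168 in pachytene libraries, led by *Cyp17a1* in condensing and pachytene libraries. The sum of the peritubular myoid markers was mostly *Actg2*, at 306 to 397 CPM in round, 258 to 351 in condensing and 34.8 to 80.4 in pachytene libraries. The smooth muscle gene *Myh11* of that list was at 5.62 to 9.26 CPM in round, 17.7 to 29.5 in condensing and 3.81 to 10.6 in pachytene libraries. Macrophage markers summed to 17.7 to 26.5 CPM in round and 2.49 to 4.66 in pachytene libraries, led by *C1qb*, *Csf1r* or *Adgre1*, and 6 of 6 tested rose at that step in wild type (median 2.78) and 4 of 4 in KO. In wild-type spermatozoa, these markers, 7 of 7 detected and led by *Lyz2*, summed to 774 and 727 CPM, against 26.6 to 35.2 in wild-type condensing spermatids. Epididymis markers summed to 1490 and 1590 CPM there, led by *Crisp1*, while *Lcn5*, *Lcn8* and *Lcn9* were at 0. The mitochondrial share of counts on genes was 3.11% to 3.70% in the 6 round libraries, 4.58% to 6.50% in pachytene and 4.48% to 7.51% in condensing libraries, so round libraries were apart from both. It was 10.9% in both wild-type spermatozoa libraries and 6.47%, 4.48% and 5.99% in wild-type condensing replicates 1, 2 and 3. Reads counted to no gene for any reason made up 48.5% and 47.8% in these spermatozoa libraries against 41.2%, 40.2% and 48.4% in these condensing libraries. Reads outside annotated exons, a part of these, made up 32.7% and 32.1% against 36.1%, 35.3% and 43.9%. Red blood cell markers stayed at or under 49.8 CPM in all libraries, with *Hba-a1* at 0 in each. Spermatocyte markers were higher at the step to condensing spermatids too: they summed to 560 to 870 CPM in wild-type round and 1000 to 1230 in wild-type condensing libraries, and 4 of 7 rose in wild type (median 0.89) and 6 of 7 in KO (median 1.09). Spermatogonium markers moved the same way, with 4 of 7 rising in wild type (median 0.66) and 3 of 7 in KO (median 0.14). *Chd1*, *Chd2*, *Chd3*, *Chd4*, *Chd8* and *Chd9* were higher in pachytene than in round libraries of both genotypes. Of these, *Chd2*, *Chd3* and *Chd4* were not called by edgeR at the step to condensing spermatids in either genotype. *Chd6*, which rose to condensing spermatids in wild type, was lower in wild-type pachytene than in wild-type round libraries. The part of RNA from any of these cells, or of RNA quality, in the changes from pachytene to round spermatids was not tested. Nor was it tested for the rises of *Chd1*, *Chd6*, *Chd8* and *Chd9* to condensing spermatids, or for the rises of 7 members and the fall of *Chd5* to spermatozoa.

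Between genotypes, the question is whether the *H2al2* KO goes with other levels of the remodelers. In pachytene spermatocytes 0 of 9 members were called by edgeR, where 0% of 12236 genes were called, 815 had an unadjusted p under 0.05 and DESeq2 called 2. In round spermatids 0 of 9 were called, where 0.0156% of 12804 genes were called, 753 had an unadjusted p under 0.05 and DESeq2 called 6. In condensing spermatids 0 of 9 were called, where 0.00728% of 13734 genes were called, 870 had an unadjusted p under 0.05 and DESeq2 called 13. DESeq2 called 0 members at each stage. Of the members, 1 had an unadjusted p under 0.05 in pachytene spermatocytes (*Chd9*), 2 in round spermatids (*Chd1* and *Chd8*) and 0 in condensing spermatids.

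*Chd5*, the member tied to the histone exchange, had KO minus wild-type log2 differences of 0.03 (95% interval -0.40 to 0.47) in pachytene, 0.01 (-0.18 to 0.21) in round and 0.08 (-0.20 to 0.37) in condensing spermatids. Leaving out 1 library moved these values across 0, from -0.17 to 0.20, from -0.04 to 0.09 and from -0.01 to 0.20. For *Chd4* the differences were -0.11 (-0.33 to 0.12), -0.01 (-0.18 to 0.15) and 0.01 (-0.23 to 0.25), and the last was -0.02 with scaling by library size alone. These intervals bound what 3 libraries per group could show and do not show that the genotypes are the same.

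No member's genotypes were apart in pachytene spermatocytes (0 of 9, where 11.4% of all genes tested did not overlap). In round spermatids 1 of 9 did not overlap, with 9.86% of all genes, and it was *Chd1*: its KO level was 22.7, 23.1 and 28.1 CPM against 31.4, 29.9 and 30.4 in wild type. All 3 KO libraries lay below all 3 wild-type ones, and the difference was -0.30 ± 0.12 (SE, adjusted p = 0.765, edgeR). In condensing spermatids 3 of 9 did not overlap, with 12.1% of all genes: *Chd1*, *Chd3* and *Chd8*. *Chd1* was at 50.8, 48.2 and 48.1 CPM in KO against 53.7, 51.6 and 53.4 in wild type. *Chd3* was at 86.2, 83.2 and 83.5 CPM in KO, just above 79.2, 80.7 and 82.6 in wild type, and *Chd8* was at 59.4, 56.3 and 54.4 CPM, just below 59.5, 61.5 and 75.4. The differences were -0.12 (-0.33 to 0.09), 0.05 (-0.16 to 0.26) and -0.22 (-0.47 to 0.03). With 1 library left out, that of *Chd8* ran from -0.29 to -0.09.

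In the libraries where these *Chd1*, *Chd3* and *Chd8* levels were apart, some somatic marker sums were apart as well and others overlapped. In round spermatids the Sertoli list, led by *Clu*, summed to 64.2, 45.8 and 42.8 CPM in wild type and 39.5, 39.4 and 30.4 in KO, and the Leydig list, led by *Star* or *Insl3*, to 11.4, 14.5 and 15.2 and to 10.9, 7.49 and 6.62. In condensing spermatids the Sertoli list summed to 546, 436 and 552 CPM in wild type and 433, 399 and 363 in KO, and the Leydig list, led by *Cyp17a1*, to 198, 152 and 236 and to 137, 91.0 and 102. The macrophage list there, led by *C1qb* or *Csf1r*, summed to 35.2, 26.6 and 33.6 CPM in wild type and 17.8, 21.4 and 25.8 in KO. For each of these sums, all 3 KO libraries lay below all 3 wild-type libraries of the stage. By edgeR 0 of the genes tested were called; an unadjusted p under 0.05 was found for 2 of 6 Sertoli and 1 of 4 Leydig genes in round and for 3 of 9 Sertoli, 6 of 7 Leydig and 4 of 6 macrophage genes in condensing spermatids. Median log2 differences in condensing spermatids were -0.14 for Sertoli, -0.88 for Leydig and -0.73 for macrophage genes. Macrophage sums overlapped in round spermatids, at 26.5, 22 and 21.7 CPM in wild type and 18.6, 24.2 and 17.7 in KO. Peritubular myoid sums overlapped at both stages. The part of any of these markers' cells in the *Chd1*, *Chd3* and *Chd8* differences was not tested.

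Some genotype differences turn on 1 library. *Chd9* in pachytene spermatocytes was at 75.8, 76.2 and 55.4 CPM in KO and at 45.4, 26.4 and 60.4 in wild type. KO replicate 3 lay inside the wild-type range and KO replicates 1 and 2 above it, and the log2 difference was 0.70 ± 0.30 (SE, 95% interval 0.02 to 1.38, adjusted p = 0.656, edgeR). Without wild-type pachytene replicate 3, *Chd9* was called (1.06, adjusted p = 0.0469, edgeR), along with 243 genes in all. Over the 6 choices of a left-out library its difference ran from 0.4 to 1.06. *Chd1* there was at 107, 108 and 87.8 CPM in KO and 82.8, 56.2 and 90.8 in wild type, a difference of 0.45 (-0.02 to 0.93). With 1 library left out, that difference ran from 0.23 to 0.65. *Chd8* in round spermatids was at 35.9, 33.2 and 37.1 CPM in KO against 33.4, 50.9 and 52.3 in wild type, where replicate 1 lay among the KO libraries. Its difference was -0.35 ± 0.16 (interval -0.69 to -0.01, adjusted p = 0.835, edgeR), and over the 6 left-out libraries it ran from -0.53 to -0.23. Without wild-type round replicate 1 it was called (-0.53, adjusted p = 0.0179, edgeR), along with 264 genes in all. That fit leaves wild-type replicates 2 and 3 alone, the pair with the closest counts (mean chi-square 1.06).

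Pachytene libraries with more *Chd9* and *Chd1* also had more spermatocyte marker RNA. These markers, 7 of 7 detected and led by *Piwil1*, summed to 2030, 1800 and 2650 CPM in wild-type replicates 1, 2 and 3 and to 3140, 3160 and 2270 in KO. *Piwil1* itself did not follow the sum, at 1140, 1230 and 1100 CPM in wild type and 1140, 1180 and 1230 in KO. The sum moved with genes such as *Sycp2*, at 243, 110 and 612 CPM in wild type and 839, 790 and 362 in KO, and *Smc1b*, at 160, 73.9 and 303 and at 357, 335 and 191. Wild-type replicate 2 was lowest in *Chd9*, *Chd1* and the marker sum, and KO replicates 1 and 2 were highest in all 3. The share of counted reads outside annotated exons was 32.0%, 30.9% and 42.4% in the wild-type and 47.7%, 43.9% and 37.4% in the KO libraries. The Sertoli list, led by *Clu*, summed to 36.6, 41.3 and 44.9 CPM in wild type and to 31.5, 21.4 and 21.8 in KO, and the Leydig list, led by *Cyp17a1*, to 82.1, 158 and 168 and to 110, 53.2 and 26.1, where 5 of 7 genes had an unadjusted p under 0.05 (median -1.19). The Sertoli sums did not overlap and the Leydig sums did. The part of these differences in the *Chd9* and *Chd1* values was not tested.

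**Figure D3:**
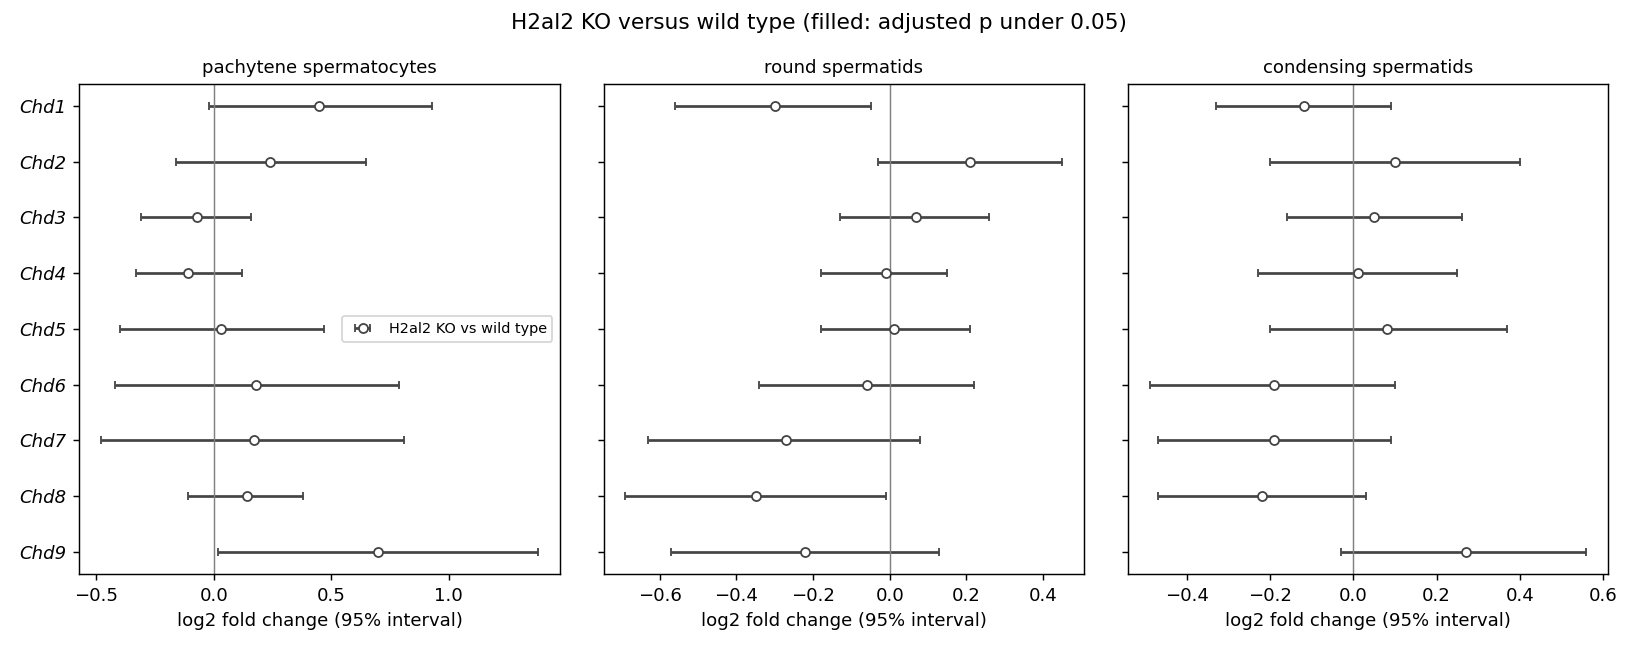
Log2 difference of *H2al2* KO from wild type for the 9 CHD genes at 3 stages, with 95% intervals computed from edgeR's F statistic (3 against 3 libraries in each panel, each with its own axis). All points are open, since 0 of 9 members had an adjusted p under 0.05 at any stage; the widest interval is that of *Chd9* in pachytene spermatocytes, 0.02 to 1.38.

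The interaction of genotype with stage asks whether a step differs between KO and wild type. For the step from pachytene to round spermatids 0 of 9 members were called by edgeR, where 0% of 14479 genes were called, 1050 had an unadjusted p under 0.05 and DESeq2 called 1 gene and 0 members. *Chd9* (-0.93, 95% interval -1.62 to -0.25), *Chd1* (-0.76, -1.21 to -0.31) and *Chd8* (-0.49, -0.88 to -0.10) had the 3 lowest values, each with an adjusted p of 0.676 in edgeR. These were the 3 of 9 members with an unadjusted p under 0.05. Spermatocyte markers had a median interaction of -0.93, with 2 of 7 under that unadjusted limit, and their part in the member values was not tested. *Chd5* was at -0.01 (-0.48 to 0.47), and *Chd6*, called at this step in wild type only, was at -0.24 (-0.79 to 0.31). For the step from round to condensing spermatids 0 of 9 members were called, where 0% of 14479 genes were called, 407 had an unadjusted p under 0.05 and DESeq2 called 0 genes. There *Chd6*, called in wild type only, was at -0.13 (-0.66 to 0.40). These comparisons share libraries with the genotype comparisons and are not independent of them.

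Genes whose pattern over the groups was nearest to that of *Chd5* were found by the Euclidean distance between centred group means of log2 CPM over 6 groups (3 stages, 2 genotypes), among 14038 genes. The 5 nearest were *Rbl2* (0.0973), 4931429L15Rik (0.0982), *Arhgef2* (0.118), *Dgkh* (0.119) and *Akap3* (0.122), beside a median distance of 2.54 over all genes compared. Since they were picked for likeness to *Chd5* over these groups, all of them peaked in round spermatids and were lowest in pachytene spermatocytes in both genotypes. *Akap3*, at 992 CPM on average, encodes a scaffold of the sperm tail. Within the family the nearest was *Chd7* at 0.908, followed by *Chd6* at 1.86, and the farthest was *Chd9* at 4.26.

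Other chromatin genes give the setting, beside 34.4%, 28.3% and 36.6% of all genes rising and 35.9%, 21.8% and 35.8% falling at the 3 wild-type steps. Of 16 other SNF2-type remodeler genes, 1 rose and 9 fell from pachytene to round spermatids in wild type, with a median of -0.83. *Srcap* (-1.85 ± 0.11), *Shprh* (-1.75 ± 0.21) and *Smarca4* (-1.59 ± 0.15) fell and *Smarcad1* rose by 1.56 ± 0.17 (log2, SE). Of these 16, 8 rose and 2 fell from round to condensing spermatids (median 0.33), and 8 rose and 7 fell towards spermatozoa (median 0.28). *Smarca1* rose most at both steps, by 3.24 ± 0.32 and 4.23 ± 0.19, from a mean of 1.02 CPM in wild-type round spermatids. Sertoli and Leydig markers rose at the step to condensing spermatids (medians 3.53 and 3.9) and fell towards spermatozoa (-3.57 and -4.12), where macrophage markers rose (3.78). The part of such cells in the *Smarca1* values was not tested. Of 11 factors of histone H4 acetylation and ubiquitination, 3 rose and 5 fell at the first step (median 0.03), 1 rose and 2 fell at the second (median -0.27) and 4 rose and 5 fell at the last (median -0.27). *Nutm1*, which encodes a spermatid partner of histone acetyltransferases, rose by 2.12 ± 0.20 at the first step and fell by 1.47 ± 0.20 at the second. A list of 12 genes of the histone to protamine exchange holds transition proteins, protamines and histone variants, some of them removed in the exchange. Of these 12, 9 rose and 3 fell at the first step (median 2.49), and 2 rose and 1 fell at the second (median -0.04). At the last step 0 rose and 10 fell (median -1.81). *Prm1* (2.84 ± 0.32) and *Tnp1* (2.83 ± 0.32) rose at the first step, and the histone variant gene *Hist1h2ba* fell by 3.63 ± 0.23.

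The promoters of *Chd5* and *Chd4* are printed because these genes exchanged the first rank at the entry into spermiogenesis. Entries of a table of RefSeq promoters (GRCm38.p6) matched 5 of 9 members, with 8 promoters in all; the promoter table at hand holds no entry under the symbols *Chd1*, *Chd2*, *Chd3* and *Chd7*. The 250 bases before the annotated start were searched on both strands for an X-box motif (GTTGCC, any 3 bases, GCAAC), the palindromic CRE, its core TGACG and the CCAAT box. Every CRE holds the core, so those matches overlap. The motifs were picked with the *Chd5* window already seen. Capitals mark the matches. The windows are chr4:152338401-152338650 (plus strand) for *Chd5* and chr6:125095731-125095980 (plus strand) for *Chd4*.
Chd4: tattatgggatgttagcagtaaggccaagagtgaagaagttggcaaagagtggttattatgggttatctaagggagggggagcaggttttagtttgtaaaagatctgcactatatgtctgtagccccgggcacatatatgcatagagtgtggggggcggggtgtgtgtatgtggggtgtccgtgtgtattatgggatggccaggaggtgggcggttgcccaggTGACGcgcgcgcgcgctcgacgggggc
Chd5: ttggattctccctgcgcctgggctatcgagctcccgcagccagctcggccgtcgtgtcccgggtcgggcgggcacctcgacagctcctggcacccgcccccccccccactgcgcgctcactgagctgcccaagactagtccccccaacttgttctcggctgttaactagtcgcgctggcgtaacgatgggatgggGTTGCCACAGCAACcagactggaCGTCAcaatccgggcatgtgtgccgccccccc

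In the *Chd5* window the X-box motif matched at 152338596 to 152338609, 55 bases before the start, and the CRE core matched on the minus strand at 152338619 to 152338623, printed as CGTCA. In the *Chd4* window the CRE core matched at 125095954 to 125095958, 27 bases before the start. Of 32817 promoters of the same length, 39 (0.119%) held the X-box motif, 5825 (17.7%) the CRE core, 508 (1.55%) the full CRE and 11103 (33.8%) a CCAAT box. A match describes these letters only and not the binding of a factor. A second *Chd4* promoter in the table, whose window opens at 125095913, held the same CRE core, 209 bases before the gene start annotated there, and a CCAAT box at 125095985 to 125095989. The listed *Chd6* promoter held 3 CCAAT boxes, that of *Chd8* held 1, and neither held the X-box motif or the CRE core. The listed *Chd9* promoters held none of the motifs searched.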

How the data were processed

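The counts are those deposited by the authors, who aligned untrimmed paired-end reads to mm10 with STAR 2.7.11b and counted with HTSeq (reverse-stranded, intersection-strict, no multi-mapped reads). Libraries were rRNA-depleted stranded total RNA. The 5 summary rows naming no gene (34.6% to 57.7% of reads) were left out.

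The 21 libraries were grouped by genotype and stage, with 2772995 to 8201682 counts on genes each. Comparisons were successive stages within a genotype, KO against wild type within 3 stages, and 2 interactions. Tests used edgeR 4.0.16 quasi-likelihood fits in R 4.3.3 (limma 3.58.1), filterByExpr (minimum count 10, total 15), TMM scaling and Benjamini-Hochberg adjustment at 0.05. Standard errors and intervals of log2 fold changes were computed from the F statistic of the edgeR test, which does not print them itself. CPM used a prior count of 2 for log values. Alternatives used DESeq2 1.42.0, other scaling, no filter, a replicate block, 1 fit of all 18 libraries, and each library left out. Summing wild-type round replicates 2 and 3 was added after seeing the data, and the promoter motifs after seeing a window. The code was tested on simulated data. Members and lists were set with earlier results of these data known.

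Genes named are all members, NuRD subunits, *H2afb1*, the 5 genes nearest *Chd5*, markers, and up to 4 of each other list per comparison by largest called change. Exon lengths are unions of GENCODE M21 exons, while the authors' annotation release is not stated.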

Additional observations from a re-analysis of the deposited data

Results flagged for a closer look

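The single *H2al2* KO spermatozoa library is outside all comparisons, since 1 library has no spread to test against. In it, 8 of 9 CHD genes lay above both wild-type spermatozoa libraries, where 6795 of 15305 genes did (44.4%). The values with 95% count intervals were 137 CPM for *Chd1* (124 to 150), 243 for *Chd2* (227 to 261), 121 for *Chd3* (110 to 134) and 413 for *Chd4* (392 to 436). They were 84.4 CPM for *Chd6* (74.7 to 94.9), 155 for *Chd7* (142 to 169), 151 for *Chd8* (138 to 165) and 91.1 for *Chd9* (81.0 to 102). *Chd5* was at 102 CPM (91.1 to 113), below wild type at 115 and 104. The intervals cover counting only and not differences between libraries. This library had 3590 CPM of macrophage markers, led by *Lyz2*, against 774 and 727 in wild type, 1170 CPM of *Vim* against 177 and 172, and 516 CPM of epididymis markers against 1490 and 1590. It had less elongating spermatid RNA, 3320 CPM of markers against 17700 and 14000. The part of these differences in the CHD values was not tested. Groups hold at most 3 libraries, so no test for outliers was run.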

How the results depend on the processing

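Members called by edgeR or DESeq2 under the alternatives without a left-out library numbered 8 to 9 for round versus pachytene in wild type, 4 to 6 for condensing versus round in wild type, 8 for spermatozoa versus condensing, 8 for the first and 3 to 5 for the second step in KO, and 0 for all genotype comparisons and interactions. The cause of any difference was not tested. All genes past the threshold for KO versus wild type in pachytene spermatocytes numbered 2 with DESeq2, 1 with no filter on low counts and 4 with all 18 libraries in one fit, in place of 0. In round spermatids they numbered 6 with DESeq2, 1 with DESeq2 size factors in edgeR, 28 with no filter, 61 with the replicate block, 1 with all 18 libraries in one fit and 1 with wild-type round libraries 2 and 3 summed, in place of 2. In condensing spermatids they numbered 13 with DESeq2, 7 with library size only, 27 with no filter and 26 with the replicate block, in place of 1. For the interaction at the step from pachytene to round spermatids they numbered 1 with DESeq2 and 1 with no filter, in place of 0. The replicate block assumes that equal replicate numbers belong together, and correlations of paired residuals ran from -0.196 to 0.259.

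Signs reversed for values near 0. The KO versus wild-type value of *Chd4* in condensing spermatids was -0.02 with library size only. The interaction of *Chd5* at the step from pachytene to round spermatids was 0.01 with DESeq2, 0.01 with DESeq2 size factors, 0.03 with library size only, 0.06 with no filter and 0.03 with the libraries summed. That of *Chd2* was 0.01 with library size only and 0.02 with no filter. The interaction of *Chd4* at the step from round to condensing spermatids was -0.02 with library size only.

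With 1 library left out at a time, members called for condensing versus round spermatids in wild type numbered 2 to 4. The log2 fold change of *Chd4* for spermatozoa versus condensing spermatids ran from -0.11 to 0.07, and that of *Chd6* for KO round versus pachytene from -0.02 to 0.46. For KO versus wild type in pachytene spermatocytes, members called numbered 0 to 1 and all genes 0 to 243, with *Chd5* from -0.17 to 0.20, *Chd6* from -0.12 to 0.39 and *Chd7* from -0.04 to 0.46. In round spermatids, members numbered 0 to 1 and all genes 1 to 264, with *Chd4* from -0.03 to 0.03 and *Chd5* from -0.04 to 0.09. In condensing spermatids all genes numbered 1 to 24, with *Chd4* from -0.02 to 0.07 and *Chd5* from -0.01 to 0.20. For the interaction at the step from pachytene to round spermatids, all genes numbered 0 to 4, with *Chd2* from -0.07 to 0.14, *Chd5* from -0.17 to 0.28 and *Chd6* from -0.40 to 0.08. For the interaction at the step from round to condensing spermatids, all genes numbered 0 to 1, with *Chd2* from -0.21 to 0.06, *Chd3* from -0.04 to 0.03, *Chd5* from -0.01 to 0.20, *Chd6* from -0.22 to 0.01 and *Chd7* from -0.03 to 0.24. With a wild-type spermatozoa library left out, the lone library is assumed to vary like the condensing group.

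*Chd6* was not called for round versus pachytene in wild type with library size only (0.23, adjusted p = 0.245), no filter (0.39, adjusted p = 0.0617) or the libraries summed (0.43, adjusted p = 0.0673). For condensing versus round in KO it was called with no filter (0.41, adjusted p = 0.0201) and with the replicate block (0.43, adjusted p = 0.0377).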
